A study of Mus musculus with 9 samples.

Results

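Oral Xiao-Yin-Fang (XYF) was compared with water in mouse ear dermis under imiquimod cream, using 3 IMQ+XYF libraries and 3 IMQ+H2O libraries, which are 6 of the 9 libraries of the series. The genes described are those whose 3 values in 1 group all lay outside the 3 values of the other. Of 22430 genes tested, 4028, or 18.0%, met this rule, and they are ordered below by the tissue compartment or function in which they are used.

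All animals were C57BL/6 mice of 8 weeks with the genotype label wide type. Both groups had imiquimod cream on the ear for 5 days and gavage of 200 µl for 10 days, which began 5 days before the cream. The paper's methods and its caption for the ear experiment differ on how many gavages were given each day. IMQ+XYF received the decoction at 23.3 mg/g and IMQ+H2O received ddH2O. XYF is made from 5 herbs, the roots of Isatis tinctoria, Scutellaria baicalensis, Salvia miltiorrhiza, Sophora flavescens and Rheum officinale. The 3 VAS+H2O libraries, from mice with vaseline on the ear and ddH2O by gavage, are given beside the others. The RNA came from intact sheets of ear dermis, and the methods do not make clear whether each library pooled mice. The labels do not say that the libraries of a group came from separate animals, so the p-values measure only the spread between these libraries, which may be technical.

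Imiquimod is a ligand of the receptor TLR7. On mouse skin it gives a psoriasis-like inflammation in which IL-23 and IL-1 drive IL-17 from dermal γδ T cells, neutrophils enter, and the epidermis thickens and keratinizes abnormally. The dermis itself holds fibroblasts in a collagen matrix, blood and lymph vessels, nerves, mast cells and macrophages, with hair follicles and sebaceous glands set into it. In the ear it lies against the epidermis on its outer side and against a plate of cartilage and thin sheets of skeletal muscle on its inner side. A library of whole tissue adds up all these cells, so fewer cells of a type and less RNA per cell cannot be told apart.

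The 6 imiquimod libraries held between 28756305 and 79836881 counts. Mitochondrial genes took 9.95 to 14.3% of the counts in IMQ+H2O and 8.21 to 11.4% in IMQ+XYF. Levels are CPM, the share of a library's counts on a fixed common total, scaled by TMM factors, which compare a gene between libraries and not with other genes. The fibroblast markers that define dermis were high in every library, with Col1a1 at 1038 CPM or more and Pdgfra at 188 CPM or more. Keratinocyte, muscle and cartilage markers were measured in every library as well. The libraries also stood apart within their groups. On the second principal component, which held 17.4% of the variance, IMQ+H2O replicate 1 scored 67.96 and IMQ+XYF replicate 2 scored 20.92, against -69.92 and -46.5 for IMQ+XYF replicates 1 and 3.

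Across all genes the contrast was centred near 0, with a median log2 fold change of 0.0054. All 3 IMQ+XYF libraries were above all 3 IMQ+H2O libraries for 2067 genes, or 9.22% of those tested, and below them for 1961 genes, or 8.74%. These shares are the background against which each gene group is read. A gap of 1.5-fold or more between the groups was left for 288 genes (1.28%), 117 above and 171 below, or 0.522% and 0.762%. The quasi-likelihood test of edgeR, with p-values adjusted by Benjamini-Hochberg over all genes, called 2 genes (0.00892%) at an adjusted p of 0.05 or lower and an absolute log2 fold change of 1 or higher, 1 higher and 1 lower (0.00446% each). For every other gene the edgeR adjusted p was 0.121 or higher. Before adjustment 2633 genes (11.7%) had a p under 0.05, of which 1424 (6.35%) were higher and 1209 (5.39%) lower. By DESeq2 at the same limits 225 of 19200 genes with an adjusted p were called (1.17%), 153 higher (0.797%) and 72 lower (0.375%). Where 1 of the 6 imiquimod libraries is left out, 2 values face 3 and more genes separate. Over all genes the counts with 1 library left out ran from 2107 to 4465 above and from 1983 to 3420 below. A rise in a list's count is therefore in part general. Scaling and the low-count filter were fitted anew each time, so a list's count can also fall. Counts made that way are given beside the results only to name the library that moves them.

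**Figure D1:**
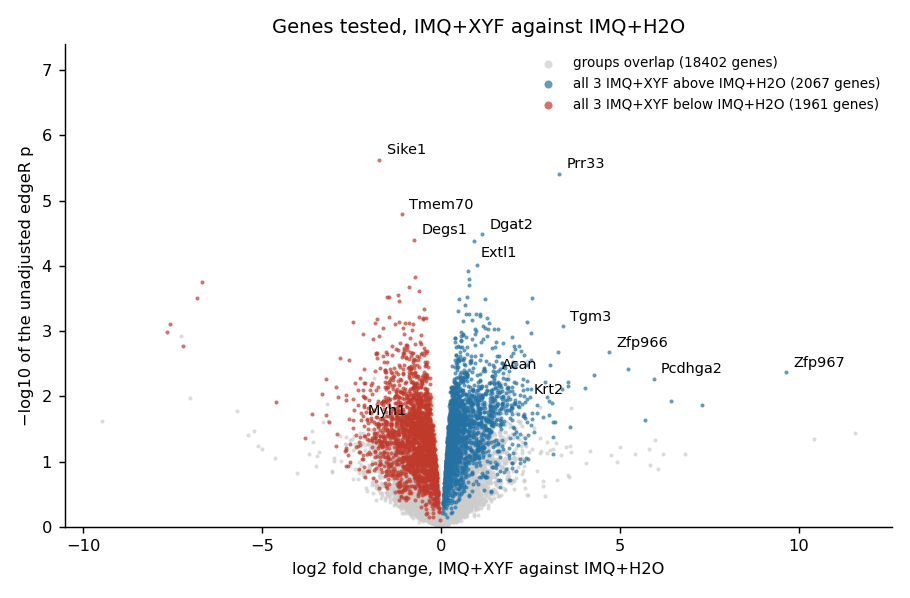
Each point is 1 of 22430 genes; the horizontal axis is the log2 fold change of IMQ+XYF against IMQ+H2O and the vertical axis the −log10 of the unadjusted edgeR p. Sike1 and Prr33 stand highest, and the 2067 genes above and 1961 genes below their IMQ+H2O libraries fill both arms.

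The 2 called genes moved in opposite directions. Prr33 (ENSMUSG00000043795) carries the name of a proline-rich protein and is annotated in GENCODE vM21 as a long intergenic non-coding RNA. It stood at 3.69, 4.15 and 4.31 CPM in IMQ+H2O and at 25.6, 59.1 and 35.1 CPM in IMQ+XYF. The lowest XYF library was thus well above the highest water library, and the VAS+H2O libraries, at 6.84, 4.34 and 4.57 CPM, lay near the water group. Prr33 rose 9.84-fold, a log2 fold change of 3.30 ± 0.33 (SE, n = 3 against 3; edgeR adjusted p = 0.0438). Sike1 (ENSMUSG00000027854), which encodes a suppressor of the antiviral kinases IKKε and TBK1, stood at 47.5, 43.1 and 46.9 CPM in IMQ+H2O and at 11.6, 17.7 and 12.3 CPM in IMQ+XYF. The 3 VAS+H2O values, 43.5, 43.2 and 47.2 CPM, were all within the span of the water group. Sike1 fell by 1.72 (log2, SE 0.16; edgeR adjusted p = 0.0438). Leaving out 1 of the 9 libraries at a time kept Prr33 past both limits in 2 of 9 fits and Sike1 in 1 of 9, with adjusted p up to 0.386 for each, while their fold changes stayed between 2.93 and 3.54 and between -1.91 and -1.61.

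The gene of Prr33 lies on the minus strand of GRCm38 at chr7:142491074-142506771. It overlaps Lsp1 (chr7:142460809-142494867) and Tnnt3 (chr7:142498836-142516009), both on the plus strand, and whether the counting used the strand was not stated. Tnnt3, the fast skeletal troponin T, did not share the direction. It was at 213, 133 and 283 CPM in IMQ+H2O and at 18.2, 105 and 69.5 CPM in IMQ+XYF, a log2 difference of -1.71 ± 0.68 (SE). Lsp1, a leukocyte actin-binding protein, differed by 0.03 ± 0.17. The sequence before the start of Prr33 in RefSeq, for the build GRCm38.p6 and on the minus strand, is shown because it lies inside Tnnt3. These 250 bases (chr7:142506772-142507021) are upstream of Prr33 and not part of it.
Prr33 upstream: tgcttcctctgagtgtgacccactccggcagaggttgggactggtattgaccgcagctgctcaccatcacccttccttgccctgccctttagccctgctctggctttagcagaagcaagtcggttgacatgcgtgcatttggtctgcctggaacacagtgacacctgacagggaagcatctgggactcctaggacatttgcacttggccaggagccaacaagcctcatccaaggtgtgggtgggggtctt

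Sike1 lies on the plus strand at chr3:102995708-103008459. Of 20 tested genes of innate signalling kinases and adaptors, 2 stood above and 3, Sike1 among them, below all IMQ+H2O libraries. Tbk1, a kinase that the Sike1 protein binds, was at 36.8, 42 and 40.3 CPM in IMQ+H2O and 42.1, 34.1 and 52 CPM in IMQ+XYF, and the groups overlapped. Tlr7, the receptor for imiquimod, overlapped too, at 4.27, 5.46 and 1.74 CPM against 2.65, 2.16 and 3.62 CPM.

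Skeletal muscle genes were lower in the XYF group. Of 43 tested genes of the contractile apparatus, 20 had all 3 IMQ+XYF libraries below all 3 IMQ+H2O libraries and 0 above. Of 21 genes of calcium handling 9 were below and 0 above, of 29 genes of muscle metabolism 16 were below and 1 above, and of 29 muscle regulators 9 were below and 2 above. The medians of the 4 lists were -1.6, -1.36, -1.12 and -1.05 on the log2 scale. No gene of these lists was called by edgeR. DESeq2 called 2, 3, 2 and 1 of them as lower, against 0.375% of all genes with an adjusted p.

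Acta1, the actin of skeletal thin filaments, was at 264, 215 and 405 CPM in IMQ+H2O and at 24.3, 122 and 118 CPM in IMQ+XYF. Myh1, a fast myosin heavy chain, was at 1127, 526 and 1228 CPM against 35, 314 and 260 CPM. Atp2a1, the calcium pump of the fast sarcoplasmic reticulum, was at 417, 200 and 436 CPM against 17.5, 141 and 90.7 CPM. In all of these IMQ+XYF replicate 1 was the lowest library. Their log2 differences were -1.74 ± 0.66, -2.24 ± 0.82 and -2.08 ± 0.76 (SE), with edgeR adjusted p of 0.386, 0.381 and 0.381. The other muscle genes among the 15 with the largest differences downwards were Ankrd2, a stretch-responsive protein of the sarcomere, at -2.17, Scn4a, the muscle sodium channel, at -2.10, Fabp3, a fatty acid carrier, at -2.05, Cacng1, a subunit of the muscle calcium channel, at -2.04, Alpk2 at -2.03, Trim63, a ubiquitin ligase of muscle wasting, at -2.02, Hhatl at -1.99 and Myoz1, which anchors calcineurin at the Z-disc, at -1.98.

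Among enzymes of muscle fuel use, Gys1, the muscle glycogen synthase, was at 45.4, 37.5 and 59.8 CPM in IMQ+H2O and 15.5, 30.6 and 22.5 CPM in IMQ+XYF (log2 difference -1.06 ± 0.25). Eno3, the muscle enolase, differed by -1.31 ± 0.41, Pygm, which breaks down glycogen, by -1.39 ± 0.54 and Ckm, the muscle creatine kinase, by -1.63 ± 0.63. Ppargc1a, a coactivator of mitochondrial genes that was listed with fat oxidation, was at 16.4, 6.24 and 9.89 CPM against 2.73, 4.86 and 3.62 CPM, a difference of -1.54 ± 0.36. Of 28 genes of the citric acid cycle and fat oxidation, 3 were below and 0 above, so most mitochondrial enzymes did not separate.

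Among the regulators, Myod1, the master factor of the muscle lineage, was at 1.34, 1.26 and 1.29 CPM in IMQ+H2O and 0.137, 0.814 and 0.422 CPM in IMQ+XYF. Mustn1, which is made in growing and repairing muscle, was at 103, 64 and 89.1 CPM against 35.4, 41.4 and 48.8 CPM (-1.03 ± 0.22). Rapsn, which gathers acetylcholine receptors at the synapse, and the cofactors Eya1 and Eya4 were below as well, at log2 differences of -1.06, -0.86 and -0.90. Mstn, a secreted inhibitor of muscle growth, was one of the 2 regulators above, at 1.38, 0.340 and 0.839 CPM in IMQ+H2O against 1.47, 3.50 and 1.80 CPM. The satellite cell factor Pax7 overlapped between the groups, at 0.241, 0.752 and 1.72 CPM against 0.0871, 0.875 and 0.601 CPM.

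Muscle RNA also varied within groups. The contractile genes summed to 6291, 3363 and 6275 CPM in IMQ+H2O, to 938, 3070 and 2034 CPM in IMQ+XYF and to 4127, 6812 and 1700 CPM in VAS+H2O. The control libraries, which had neither cream nor XYF, thus spanned from below 2 of the XYF libraries to above all water libraries. Leaving out IMQ+H2O replicate 2 raised the number of contractile genes below from 20 to 36, and leaving out IMQ+XYF replicate 2 raised it to 38. The same omissions gave 16 and 15 calcium handling genes and 18 and 20 regulators. Whether the amount of muscle left on the sheets played a part was not tested.

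Several contractile genes carry a CArG box, the element bound by serum response factor, before their start. RefSeq upstream windows were found for 32 of the 43 contractile genes, and 5 of them, or 15.6%, held a CArG box in the 250 bases before the start on either strand, spelled as CC, 6 letters of A or T, and GG, against 1.62% of 27025 symbols in the table. Their boxes are shown in capitals with 20 bases on each side, 5′ to 3′ on the strand of the gene, to let the element be compared among genes of the contractile list. The windows are from GRCm38.p6, at chr8:123894819-123894868 on the minus strand for Acta1, chr11:67237688-67237737 (plus) for Myh4, chr9:110763573-110763622 (plus) for Myl3, chr17:71019438-71019487 (plus) for Myom1 and chr14:34588687-34588736 (minus) for Ldb3. Overlap with other motifs was not examined.
Acta1: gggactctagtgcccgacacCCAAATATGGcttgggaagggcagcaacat
Myh4: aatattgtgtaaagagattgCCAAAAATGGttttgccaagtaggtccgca
Myl3: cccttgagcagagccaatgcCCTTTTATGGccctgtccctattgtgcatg
Myom1: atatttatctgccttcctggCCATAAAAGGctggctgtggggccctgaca
Ldb3: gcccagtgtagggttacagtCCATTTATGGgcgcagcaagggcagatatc

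Of these 5 genes, Acta1 and Myom1, a protein of the sarcomere's M-band, had separate groups. Myom1 was at 88.2, 54.8 and 101 CPM in IMQ+H2O and 9.88, 53.6 and 35.8 CPM in IMQ+XYF. Myh4, the fastest myosin, was at 5.10, 16.6 and 27.1 CPM against 0.995, 2.38 and 10.4 CPM, Myl3, a slow light chain, at 5.37, 4.49 and 7.43 CPM against 0.436, 4.78 and 2.29 CPM, and the Z-disc protein Ldb3 at 84.7, 38 and 88.5 CPM against 4.89, 45.1 and 23.1 CPM. In the last 3 an XYF library lay within the water range. The box was not particular to contractile genes. It was found for 2 of 19 immediate early genes with a window (10.5%), 2 of 22 of the response to foreign compounds (9.09%), 2 of 30 Wnt genes (6.67%), 1 of 20 smooth muscle genes (5.0%) and 1 of 22 muscle regulators (4.55%), and for 0 of 12 calcium handling and 0 of 27 muscle metabolism genes.

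**Figure D2:**
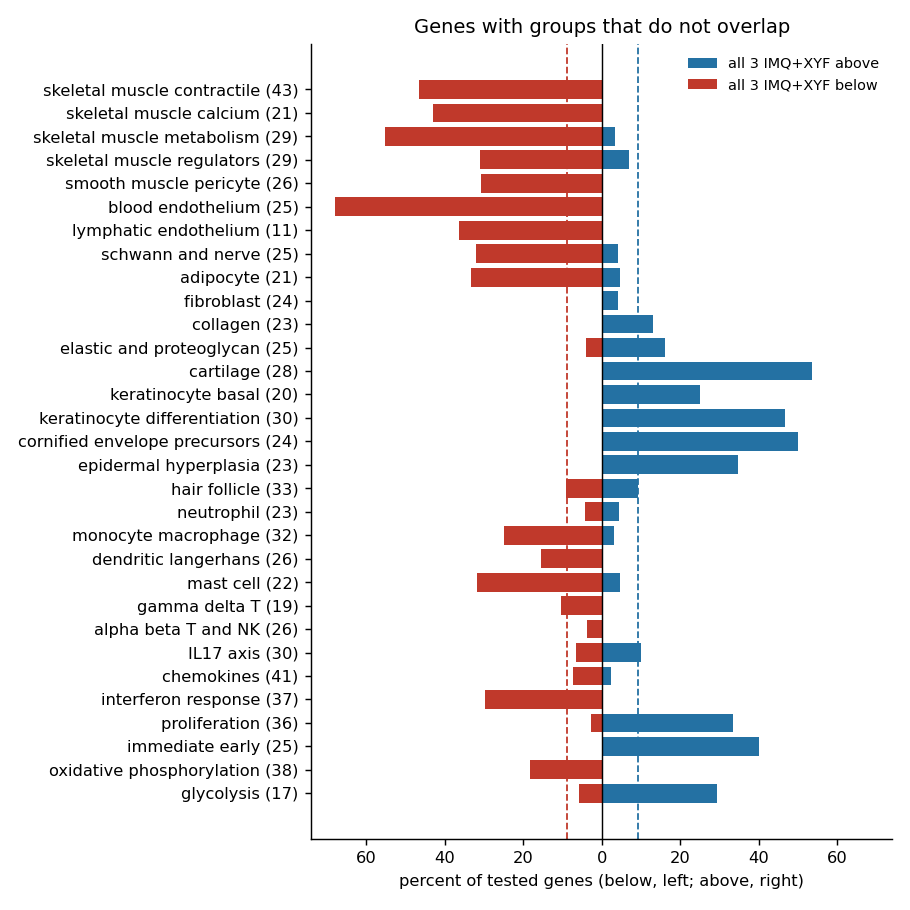
For each gene list, with the number of tested genes in brackets, bars give the percent whose 3 IMQ+XYF libraries all lay above (right) or below (left) the 3 IMQ+H2O libraries; dashed lines mark the shares over all genes, 9.22% and 8.74%. Muscle, vessel and nerve lists reach left, cartilage and epidermal lists reach right, and fibroblast, neutrophil and αβ T cell lists stay at or inside the lines on both sides.

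Vessel walls and nerves were lower in the XYF group too, by smaller factors. Of 25 tested genes of blood endothelium, 17 (68.0%) had all XYF libraries below the water libraries and 0 above, with a median log2 difference of -0.64. Pecam1, the junctional protein CD31, was at 447, 435 and 446 CPM in IMQ+H2O and 294, 157 and 414 CPM in IMQ+XYF. Gpihbp1, which holds lipoprotein lipase on capillaries, was at 50.4, 40.2 and 34.3 CPM against 23.2, 12.4 and 25.8 CPM (-1.02 ± 0.26). Plvap, the diaphragm protein of fenestrated capillaries, was at 445, 396 and 438 CPM against 269, 159 and 361 CPM. IMQ+XYF replicate 2 was the lowest library for each of these and replicate 3 the nearest to the water group. Kdr, the main VEGF receptor, Nos3, the endothelial nitric oxide synthase, Cldn5, a tight junction protein, and the phosphatase Ptprb were also below, at log2 differences of -0.60, -0.66, -0.77 and -0.85, while Cdh5, the cadherin of endothelial junctions, overlapped.

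Both Plvap and Nos3 were lower in VAS+H2O than in IMQ+H2O. Plvap was at 116, 124 and 198 CPM there and Nos3 at 26.7, 33.1 and 44.5 CPM, against 91.1, 94.7 and 99.8 CPM in IMQ+H2O and 57.9, 38.3 and 84.7 CPM in IMQ+XYF. The median log2 difference of the 25 genes between IMQ+H2O and VAS+H2O was 0.83, and between IMQ+XYF and VAS+H2O 0.19, and both share libraries with the contrast described here. Leaving out IMQ+XYF replicate 2, the endothelial median moved from -0.64 to -0.37, and 17 genes were below.

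Of 11 lymphatic genes, 4 were below and 0 above. Prox1, the factor that specifies lymphatic identity, was at 38.1, 41.4 and 34.5 CPM in IMQ+H2O and 22.1, 16.1 and 28.6 CPM in IMQ+XYF (-0.77 ± 0.24). Nr2f2, its partner from the venous lineage, was at 92.9, 85.7 and 72.1 CPM against 43.8, 36.1 and 60.7 CPM, and the receptor Flt4 and the glycoprotein Reln were also below. Lyve1, the hyaluronan receptor of lymphatic capillaries, overlapped. The endothelial molecules that catch leukocytes did not separate as clearly: of 10 tested, 2 were below, one of them Jam2 at 75.2, 73.3 and 82.6 CPM against 47.1, 28.2 and 62.0 CPM. The selectins Sele and Selp and the integrin ligand Vcam1 overlapped between the groups.

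Of 26 genes of smooth muscle and pericytes, 8 were below and 0 above, with a median of -0.69. Myh11, the smooth muscle myosin, was at 120, 169 and 156 CPM in IMQ+H2O and 68.3, 34.7 and 110 CPM in IMQ+XYF. Lmod1, which nucleates actin in smooth muscle, was at 17.4, 16.7 and 20.4 CPM against 8.92, 9.97 and 13.5 CPM (-0.75 ± 0.19), and Abcc9, a potassium channel subunit of pericytes, at 40.9, 49.8 and 47.3 CPM against 25.6, 21.4 and 34.8 CPM (-0.75 ± 0.21). Acta2 and Rgs5 overlapped, at -0.87 ± 0.39 and -0.71 ± 0.31. Leaving out IMQ+XYF replicate 3, the library nearest to the water group, raised the count from 8 to 19, and leaving out IMQ+H2O replicate 1 raised it to 14.

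Of 25 genes of Schwann cells and nerve, 8 were below and 1 above, with a median of -0.58. Sox10, the factor that keeps the glial lineage, was at 78.8, 69.8 and 65.0 CPM in IMQ+H2O and 46.9, 31.6 and 58.4 CPM in IMQ+XYF. Pllp differed by -1.02 ± 0.37, and Drp2, which links myelin to its basal lamina, by -0.95 ± 0.41. The one gene above was S100b, which chondrocytes make as well as glia, at 49.6, 25.5 and 38.1 CPM against 55.7, 154 and 82.5 CPM. Without IMQ+XYF replicate 2 the median was -0.32 with 6 genes below, while 15 were below without IMQ+H2O replicate 2 and 14 without IMQ+XYF replicate 3.

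Cartilage genes were higher. Of 28 tested genes of chondrocytes and their matrix, 15 had all XYF libraries above the water libraries and 0 below, with a median log2 difference of 1.19 and DESeq2 calls for 12. Col2a1, the fibrillar collagen of cartilage, was at 19.4, 13.9 and 22.3 CPM in IMQ+H2O and 29.3, 84.0 and 53.4 CPM in IMQ+XYF (1.58 ± 0.38; edgeR adjusted p = 0.36). Acan, its large proteoglycan, was at 247, 134 and 184 CPM against 279, 848 and 473 CPM. Sox9, the factor that specifies chondrocytes, was at 87.7, 75.5 and 78.9 CPM against 101, 264 and 147 CPM. Replicate 2 was the highest XYF library in each and replicate 1 lay just above the water group.

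Fgfr3, a receptor that restrains cartilage growth, was at 93.2, 58.6 and 73.1 CPM in IMQ+H2O and 142, 317 and 226 CPM in IMQ+XYF, a log2 difference of 1.61 ± 0.33. The matrix proteins Matn4 and Comp were above by 1.17 ± 0.25 and 1.45 ± 0.47. Wif1, a secreted Wnt inhibitor that was on the cartilage list, was at 428, 227 and 285 CPM against 472, 1169 and 603 CPM. The VAS+H2O libraries held 1729, 632 and 835 CPM of Wif1 and 147, 83.2 and 131 CPM of Col2a1, more than the water group in each case. The whole list summed to 2692, 1845 and 2367 CPM in IMQ+H2O, 3010, 7160 and 3778 CPM in IMQ+XYF and 8239, 4030 and 4484 CPM in VAS+H2O. Without IMQ+XYF replicate 2 the list's median was 0.74, with 15 genes above. Whether the amount of cartilage left on the sheets played a part was not tested.

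The fibroblast and collagen lists were mostly not separated. Of 24 fibroblast genes 1 was above and 0 below, and of 23 collagen genes 3 were above and 0 below, with medians of -0.15 and -0.19. Col1a1, the main fibrillar collagen of skin, was at 1641, 3306 and 3401 CPM in IMQ+H2O and 1585, 1038 and 3090 CPM in IMQ+XYF, and Col3a1 and Pdgfra overlapped as well. The fibroblast gene above was Fap, a surface protease of activated fibroblasts, at 22.4, 19 and 20.8 CPM against 25.5, 68.6 and 38.7 CPM. The collagens above were Col6a3, of beaded microfibrils, at 317, 395 and 344 CPM against 412, 643 and 598 CPM, Col8a1, of vessel and elastic tissue, at 293, 144 and 242 CPM against 323, 726 and 449 CPM, and Col16a1 at 194, 220 and 177 CPM against 238, 303 and 305 CPM. Each was higher in VAS+H2O than in IMQ+H2O, with Col8a1 at 1816, 1064 and 1360 CPM.

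Among 25 genes of elastic fibres and proteoglycans, 4 were above (16.0%) and 1 below (4.0%), against 9.22% and 8.74% of all genes. Fbn2, a fibrillin of young elastic fibres, was at 22.9, 21.9 and 17.6 CPM in IMQ+H2O and 25.8, 74.4 and 45.9 CPM in IMQ+XYF (1.23 ± 0.32). Bgn, a small proteoglycan, was at 1335, 1441 and 1419 CPM against 1508, 2625 and 1807 CPM. Eln, elastin itself, overlapped by 1 library, at 356, 430 and 372 CPM against 366, 818 and 824 CPM. The gene below was Lox, which crosslinks collagen and elastin, at 329, 414 and 317 CPM against 262, 249 and 281 CPM. Of 24 genes of matrix remodelling 0 were above and 0 below.

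Epidermal genes were higher in the XYF group. Of 20 tested basal genes 5 stood above all water libraries, of 30 genes of differentiation 14, of 24 genes of cornified envelope precursors 12 and of 23 genes of hyperplastic epidermis 8, while 0 stood below in any of the 4 lists. Their medians were 1.0, 1.37, 2.20 and 1.49 on the log2 scale. No gene of these lists was called by edgeR. DESeq2 called 4, 5, 4 and 3 of them as higher, against 0.797% of all genes with an adjusted p.

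Krt14, a keratin of the basal layer, was at 724, 955 and 757 CPM in IMQ+H2O and 3367, 1064 and 1913 CPM in IMQ+XYF. Krt10, a keratin of the layers above, was at 514, 747 and 881 CPM against 6179, 1450 and 1234 CPM, and Krt2, of the upper spinous layer, at 487, 512 and 860 CPM against 7122, 1421 and 1294 CPM. The desmosomal cadherins Dsc3, Dsc1 and Dsg1b were above too, with log2 differences of 1.5 ± 0.38, 1.82 ± 0.54 and 1.57 ± 0.46. Krt5 and Krt1, the pairing partners of Krt14 and Krt10, were higher by 1.38 and 1.58 but overlapped with the water group in replicate 2. Krt15, another basal keratin, was not higher, at a log2 difference of -0.03. Replicate 1 held several times the differentiation RNA of replicates 2 and 3: the list summed to 20081, 5469 and 5633 CPM, against 2959, 3903 and 3774 CPM in IMQ+H2O and 7485, 8979 and 4054 CPM in VAS+H2O. Without IMQ+XYF replicate 1 the median of the differentiation list was 0.55 with 14 genes above, and that of the basal list 0.47 with 5 genes above. The counts were 22 and 16 without IMQ+XYF replicate 2, and the basal count was 13 on leaving out IMQ+H2O replicate 2.

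Late envelope genes had another order among the libraries. Tgm3, the transglutaminase that crosslinks the envelope, was at 4.65, 4.61 and 7.12 CPM in IMQ+H2O and 51.1, 13.3 and 112 CPM in IMQ+XYF (3.42 ± 0.69; edgeR adjusted p = 0.358). Sprr1b, a small proline-rich envelope protein, was at 22, 20.3 and 24.5 CPM against 86.7, 28.2 and 182 CPM, and Sprr2d at 3.10, 3.08 and 5.03 CPM against 14.8, 5.41 and 33.6 CPM. Replicate 3 was the highest here and replicate 2 the lowest. Lce3d, of the late envelope proteins made in injured and psoriatic skin, was at 0.207, 0.146 and 0.351 CPM against 0.722, 1.04 and 10.1 CPM, and Lce3e and Lce3f were above as well. Sprr2e, Sprr2h and Sprr2g differed by 3.02 ± 1.06, 2.67 ± 0.92 and 2.44 ± 1.01, with most of the signal in replicate 3. The Sprr2 genes, and likewise the Lce3 genes, are near copies of one another, which makes each single value uncertain. Leaving out IMQ+H2O replicate 1 or IMQ+XYF replicate 2 raised the envelope count from 12 to 20 or 21. Flg and Lor, the filaggrin and loricrin of the granular layer, overlapped between the groups.

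The keratins of thickened and wounded epidermis shared that order. Krt16 was at 84.7, 129 and 107 CPM in IMQ+H2O and 464, 132 and 742 CPM in IMQ+XYF, so replicate 2 was only just outside the water range. Krt6a, at 144, 249 and 182 CPM against 398, 175 and 1039 CPM, and Krt6b, at 27.7, 50.6 and 45.6 CPM against 79.6, 46.1 and 504 CPM, overlapped through replicate 2. Serpinb3b, a protease inhibitor of squamous epithelium from a family of near copies, was at 6.37, 9.32 and 10.9 CPM against 103, 20 and 30.5 CPM. Slpi, an inhibitor of neutrophil elastase, was at 18.5, 19.2 and 29.2 CPM against 48.0, 30.6 and 59.5 CPM, and Stfa3, a cathepsin inhibitor, at 4.13, 4.17 and 6.01 CPM against 15, 6.89 and 20.6 CPM. Leaving out IMQ+XYF replicate 2 raised the number of hyperplasia genes above from 8 to 24, a gene that the low-count filter had removed included. In VAS+H2O, Krt16 was at 17.4, 31.3 and 7.15 CPM. Whether the amount of epidermis left on the sheets played a part was not tested.

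Hair follicle genes did not follow the epidermis. Of 33 tested, 3 were above and 3 below, and the hair cortex keratin Krt31 had at most 0.0585 CPM in the 6 imiquimod libraries. Msx2, a factor of the hair matrix, was at 1.86, 2.04 and 1.5 CPM in IMQ+H2O and 5.08, 3.62 and 3.46 CPM in IMQ+XYF (1.17 ± 0.24). Foxn1, a factor of both the hair and the differentiating epidermis, was at 0.999, 1.02 and 1.23 CPM against 9.06, 2.01 and 1.93 CPM. Krt27, of the inner root sheath, was at 0.999, 2.57 and 0.800 CPM against 0.535, 0.224 and 0.422 CPM. Of 22 sebaceous gland genes 0 were above and 2 below, and Scd1, the desaturase that abounds in these glands, overlapped.

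**Figure D3:**
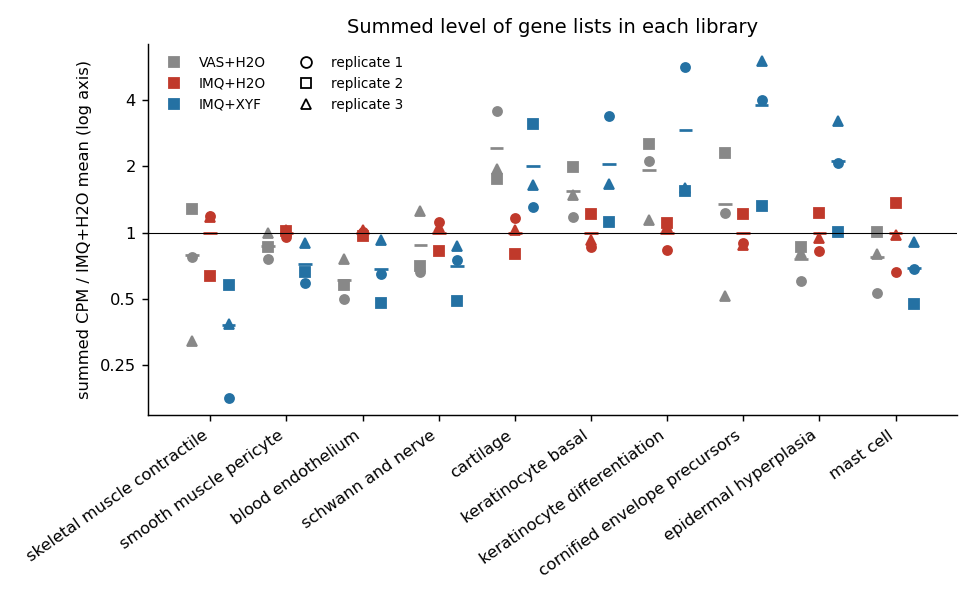
Summed CPM of 10 gene lists in each library, divided by the mean of IMQ+H2O, on a log axis; colours are groups, symbols replicate numbers and short lines group means. Within IMQ+XYF, replicate 1 is lowest for muscle and highest for keratinocyte differentiation, replicate 2 is highest for cartilage and lowest for endothelium and nerve, and replicate 3 is highest for envelope precursors and hyperplasia.

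The adipocyte list was split. Of 21 genes tested, 7 were below and 1 above. The genes below were led by Slc2a4, the insulin-responsive glucose transporter of fat and muscle, at 28.4, 18.2 and 32.1 CPM in IMQ+H2O and 8.41, 14.2 and 14 CPM in IMQ+XYF, and by the fatty acid handlers Cd36 and Fabp4, which capillaries and muscle make as well, at -0.63 ± 0.19 and -0.73 ± 0.29. The genes that define fat cells, Adipoq, Plin1 and Lep, overlapped, with log2 differences of 0.09, 0.14 and 0.21. The gene above was Dgat2, which makes triglyceride, at 53.6, 50.2 and 54.5 CPM against 98.4, 143 and 109 CPM.

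The leukocyte lists differed among themselves. Of 23 neutrophil genes 1 was above and 1 below, and the calprotectin genes S100a8 and S100a9 overlapped, with S100a8 at 68.0, 83.7 and 227 CPM in IMQ+H2O and 102, 61.7 and 182 CPM in IMQ+XYF. The neutrophil gene below was Lcn2, an iron-sequestering protein also made by keratinocytes, at 188, 215 and 296 CPM against 147, 140 and 163 CPM, with 20.5, 32.2 and 22.4 CPM in VAS+H2O. Of 32 monocyte and macrophage genes 8 were below and 1 above, with a median of -0.50. The 3 chains of complement C1q were below together, with C1qa at 96.5, 157 and 109 CPM against 84.6, 74.7 and 86.2 CPM, and C1qb and C1qc at -0.58 ± 0.20 and -0.58 ± 0.19. Cd68, of macrophage lysosomes, was below at a log2 difference of -0.63, while the defining receptors Csf1r, Adgre1 and Mrc1 overlapped. Without IMQ+H2O replicate 1 the number of macrophage genes below was 19, and without IMQ+XYF replicate 3 it was 13.

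Of 22 mast cell genes 7 were below and 1 above. Ms4a2, the β chain of the IgE receptor, was at 4.20, 17.2 and 6.24 CPM in IMQ+H2O and 1.10, 1.65 and 1.90 CPM in IMQ+XYF (-2.58 ± 0.63; edgeR adjusted p = 0.36), and its partner Fcer1a at 2.58, 5.39 and 3.94 CPM against 1.16, 1.38 and 2.26 CPM. Mrgprb2, the receptor through which basic compounds trigger mast cells, was at 2.79, 5.70 and 3.32 CPM against 1.62, 1.06 and 2.26 CPM. Kit and the tryptase Tpsab1 were below at -0.61 and -1.01. The abundant proteases Cpa3, Cma1 and Mcpt4 overlapped, with Mcpt4 at 91.7, 219 and 102 CPM against 110, 76.4 and 141 CPM. Without IMQ+H2O replicate 1 the count below was 16, without IMQ+XYF replicate 3 it was 13, and without IMQ+H2O replicate 2 the median moved from -0.67 to -0.37.

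Of 26 dendritic and Langerhans cell genes, 4 were below and 0 above. Flt3, the receptor that sustains dendritic cells, was at 4.27, 8.05 and 5.46 CPM in IMQ+H2O and 3.53, 2.32 and 3.86 CPM in IMQ+XYF, and Cd74, the invariant chain of antigen presentation, was at 363, 633 and 411 CPM against 305, 207 and 361 CPM. Cd207, the langerin of Langerhans cells, was at 1.21, 3.40 and 1.68 CPM against 9.15, 1.59 and 3.86 CPM and overlapped. The count below was 14 without IMQ+XYF replicate 3, and it was 8 on leaving out IMQ+H2O replicate 1.

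Of 19 tested γδ T cell genes 2 were below (10.5%) and 0 above, and the share below was near the 8.74% of all genes. Trdc, the constant chain of the δ receptor, was at 2.72, 19 and 26.7 CPM in IMQ+H2O and 12.1, 3.48 and 9.37 CPM in IMQ+XYF and overlapped. Zbtb16, a factor of innate-like T cells that fibroblasts also make, was at 55.6, 72.5 and 88.7 CPM against 51.7, 45.1 and 40.5 CPM. Il17a was at 0, 0.340 and 0.0975 CPM against 0.224, 0.224 and 0.114 CPM, and the water library at 0 allows up to 0.104 CPM by a floor of 3 counts that covers counting error only. Il17f and Il23r overlapped. Of 26 αβ T and NK cell genes 1 was below, the coreceptor Cd4, at 4.27, 7.06 and 3.24 CPM against 2.24, 3.17 and 2.91 CPM.

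The IL-17 axis list had 30 tested genes, of which 3 were above (10.0%) and 2 below (6.67%), with a median of 0.00. These shares were near the 9.22% and 8.74% of all genes. Ccl20, the chemokine that draws CCR6-bearing T cells to the epidermis, was at 13.2, 11.5 and 12.5 CPM in IMQ+H2O and 141, 25.7 and 30 CPM in IMQ+XYF (2.41 ± 0.66; edgeR adjusted p = 0.364), with 2.01, 3.72 and 1.21 CPM in VAS+H2O. Without IMQ+XYF replicate 1, the library with the most differentiation RNA at 20081 CPM, the log2 difference of Ccl20 was 1.17, and the part of the epidermal genes in it was not tested. Il17rc, a receptor chain for IL-17, was at 19.1, 28.4 and 23 CPM against 53.0, 28.5 and 35 CPM, and Nfkbiz, the IκBζ that carries the IL-17 signal in keratinocytes, at 205, 270 and 231 CPM against 340, 316 and 344 CPM. Il12b, a chain of IL-23, was below at 0.827, 0.558 and 0.917 CPM against 0.523, 0.386 and 0.406 CPM. Of the downstream genes, Cxcl5 and Saa3 overlapped. Cxcl5 was at 22.7, 152 and 101 CPM against 62.0, 29.5 and 173 CPM, and Saa3 at 64.5, 334 and 752 CPM against 177, 75.8 and 180 CPM. Without IMQ+H2O replicate 2 the count above was 7, and without IMQ+H2O replicate 1 the count below was 6.

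Of 19 tested genes of the IL-1 and IL-36 family 5 were above and 0 below, but the median was -0.08, 9 had a log2 difference above 0, and 0 had an unadjusted edgeR p under 0.05 or a DESeq2 call. Il1a, the form that keratinocytes store, was at 3.24, 2.60 and 4.53 CPM in IMQ+H2O and 12.7, 5.02 and 16.1 CPM in IMQ+XYF. Il1b, made chiefly by myeloid cells, overlapped at 62.1, 92.0 and 195 CPM against 91.5, 49.0 and 125 CPM, as did the antagonist Il1rn. Of 41 chemokines and receptors 1 was above (2.44%), Ccl20, and 3 below (7.32%), each share under that of all genes. Among those below were Cxcr4 at 14.6, 15.1 and 12.5 CPM against 7.47, 6.77 and 9.89 CPM and Cxcl11 at 1.31, 1.70 and 0.858 CPM against 0.348, 0.508 and 0.747 CPM. Cxcl1, Cxcl2 and Ccl2 overlapped. Omitting IMQ+XYF replicate 2, the IL-1 family count above was 8, and without IMQ+H2O replicate 1 the chemokine count below was 9.

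Interferon-induced genes were lower by small amounts. Of 37 tested 11 were below and 0 above, with a median of -0.32, and 0 of them had an unadjusted edgeR p under 0.05. Mx1, a GTPase against influenza viruses, was at 24.6, 35.2 and 41.8 CPM in IMQ+H2O and 18.5, 10.6 and 22.3 CPM in IMQ+XYF. Rsad2, the antiviral viperin, was at 32.1, 40.7 and 34.3 CPM against 22.8, 13.2 and 28.3 CPM, and Ifit1, which binds viral RNA, at 85.3, 67.0 and 70.0 CPM against 54.8, 51.4 and 61.9 CPM. Isg15 overlapped. In VAS+H2O, Rsad2 was at 35.4, 144 and 169 CPM, so the control group held more of it than either imiquimod group in 2 of 3 libraries. The number of genes below was 31 without IMQ+XYF replicate 3.

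Of 21 complement and acute phase genes, 2 were above and 1 below. C9, the pore-forming unit, was at 0.689, 0.776 and 0.351 CPM in IMQ+H2O and 0.796, 4.58 and 2.47 CPM in IMQ+XYF, and C3, the central component, overlapped at 456, 812 and 657 CPM against 632, 471 and 486 CPM.

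Genes of cell division were higher. Of 36 proliferation genes 35 had a log2 difference above 0, 12 stood above all water libraries and 1 below, with a median of 0.44. Mki67, the Ki-67 antigen of cycling cells, was at 47.9, 71.6 and 56.4 CPM in IMQ+H2O and 101, 74.1 and 82.0 CPM in IMQ+XYF. Cdc20, which starts anaphase, was at 9.16, 10.4 and 8.27 CPM against 16.7, 11.9 and 21.5 CPM (0.85 ± 0.26), Tpx2, a spindle factor, differed by 0.65 ± 0.23 and Mcm5, of the replicative helicase, by 0.59 ± 0.21. The one gene below was Tyms, which makes thymidylate, at 15.2, 16.1 and 17 CPM against 13.7, 10.4 and 12.4 CPM. Top2a and Ccnb1 overlapped. The epidermal lists moved in the same libraries, and their part in the proliferation genes was not tested. Without IMQ+H2O replicate 2 the count above was 29 and without IMQ+XYF replicate 2 it was 26.

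Immediate early and stress genes were higher by modest factors. Of 25 tested 10 were above and 0 below, with a median of 0.41. Hspa1b, an inducible heat shock protein with a near copy beside it, was at 555, 674 and 507 CPM in IMQ+H2O and 882, 892 and 1062 CPM in IMQ+XYF (0.71 ± 0.15). Fos, of the AP-1 factor, was at 1796, 2235 and 2070 CPM against 2267, 3663 and 2638 CPM, Egr1, a zinc finger factor induced within minutes, at 1176, 1333 and 1338 CPM against 1646, 2360 and 1591 CPM, and Cyr61, a matrix protein induced by stretch, at 550, 614 and 814 CPM against 911, 1350 and 961 CPM. Replicate 2 was the highest XYF library in Fos, Egr1 and Cyr61. In VAS+H2O, Fos was at 3236, 2852 and 4028 CPM, above every water library. Without IMQ+H2O replicate 2 the count above was 19.

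The lists of central metabolism had medians near 0. Of 38 oxidative phosphorylation genes 7 were below and 0 above with a median of -0.09, and the count was unstable when 1 library was left out. It was 16, 2 and 12 on leaving out IMQ+XYF replicates 1, 2 and 3, and 15 and 3 on leaving out IMQ+H2O replicates 2 and 3. Of 17 glycolysis genes 5 were above and 1 below, and without IMQ+XYF replicate 2 there were 10 above. Pfkl, a phosphofructokinase, was at 35.8, 44.7 and 46.2 CPM in IMQ+H2O and 61.3, 66.4 and 58.4 CPM in IMQ+XYF (0.56 ± 0.15). Slc2a1, the ubiquitous glucose transporter, was at 69.4, 79.2 and 73.3 CPM against 87.2, 92.0 and 116 CPM and Eno1, the common enolase, at 183, 194 and 190 CPM against 237, 207 and 258 CPM. Sterol synthesis was mixed, with 4 of 20 genes above and 2 below: Sc5d, of the last steps, was above by 0.59 ± 0.14, and Msmo1, of the demethylation steps, was below at -0.66. Omission of IMQ+XYF replicate 2 made the sterol counts 6 above and 6 below, and without IMQ+XYF replicate 3 there were 8 above.

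Of 29 genes of arachidonic acid metabolism 7 were above and 2 below. Alox12b, the lipoxygenase of the epidermal barrier, was at 8.13, 7.74 and 9.13 CPM in IMQ+H2O and 59.8, 13.9 and 25.8 CPM in IMQ+XYF, Alox12 was above by 1.69 ± 0.57, and Pla2g4e, an epithelial phospholipase, was at 21.8, 29.9 and 27.6 CPM against 76.6, 33.8 and 61.0 CPM. Ptgs2, the inducible cyclooxygenase, overlapped widely, at 8.54, 95.3 and 83.1 CPM against 68.1, 28.4 and 118 CPM. Without IMQ+XYF replicate 1 the list's median was 0.12, against 0.47 with it, and without IMQ+XYF replicate 2 the count above was 14.

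A list of 10 dermal genes was taken from the study, which chose it on these libraries, so the direction of its genes here is not independent evidence. All 10 had separate groups, 8 above and 2 below. Gria1, a glutamate receptor channel, was at 5.86, 4.46 and 5.29 CPM in IMQ+H2O and 10.8, 22 and 11.6 CPM in IMQ+XYF, Pycr1, which makes proline, at 1.58, 1.02 and 1.46 CPM against 2.41, 4.05 and 4.38 CPM, and Pla2g5, a secreted phospholipase, at 18.1, 23.3 and 31.1 CPM against 41.1, 87.6 and 45.7 CPM. The Wnt genes among them were Wnt3a at 0.172, 0.340 and 0.156 CPM against 2.14, 0.569 and 0.585 CPM, the receptor Fzd9 at 67.1, 52.1 and 63.0 CPM against 98.5, 256 and 129 CPM, and Wnt9b, below, at 2.55, 1.6 and 2.15 CPM against 0.796, 0.691 and 0.877 CPM. The others were Wif1, Alox12, C9 and Fcer1a, given above. In the wider Wnt list of 39 tested genes, which holds some of them, 6 were above and 3 below, and among 34 genes of calcium and cyclic nucleotide signalling, which holds Gria1, 5 were above and 6 below. Without IMQ+H2O replicate 2 there were 13 Wnt genes above and 11 signalling genes below. The guanylate cyclase chain Gucy1a3, the receptor of nitric oxide in smooth muscle, was among those below, at 28.7, 33.3 and 29 CPM against 16.6, 13 and 20.4 CPM.

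Among 27 genes of the response to foreign compounds, 5 were above and 3 below, and without IMQ+XYF replicate 2 there were 10 above. Gsta4, a glutathione transferase for lipid aldehydes, was at 10.6, 8.78 and 14.1 CPM in IMQ+H2O and 42.8, 17.1 and 78.6 CPM in IMQ+XYF (2.04 ± 0.46), and Gsta1 was above by 2.02 ± 0.47. Gsta3 was below, at 29.7, 33.8 and 28.8 CPM against 22.9, 13.7 and 19.3 CPM. The α class of these enzymes holds close copies, so the split of their reads is uncertain. Cyp1a1, the classic target of the aryl hydrocarbon receptor, overlapped at 15.6, 26.8 and 34 CPM against 18.5, 18.3 and 22.2 CPM. Of 14 glucocorticoid targets 3 were below and 0 above, with Fkbp5, a chaperone of the receptor, at 150, 147 and 177 CPM against 132, 79.0 and 101 CPM.

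**Figure D4:**
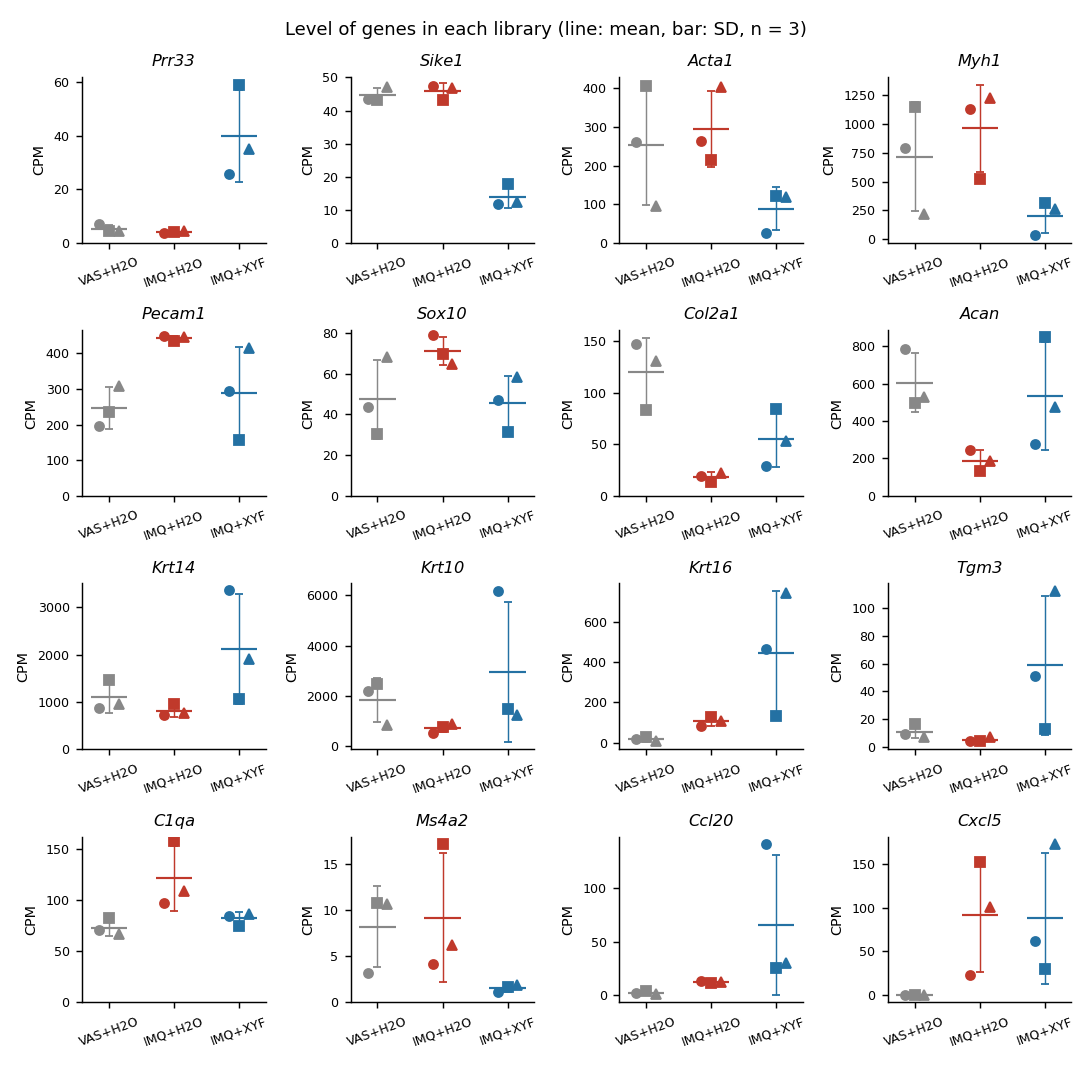
Level in CPM of 16 genes in every library, with group means and SD (n = 3) and the replicate symbols of the list plot. Prr33 and Sike1 show a tight water group, and Ms4a2 a tight XYF group, replicate 2 is the lowest IMQ+XYF library for Krt14, Krt16 and Tgm3, replicate 1 is far above the rest for Krt10, and Cxcl5 overlaps.

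The genes with the lowest p outside the called pair were mostly of modest fold and tight groups. Tmem70, which assembles the mitochondrial ATP synthase, was at 16.6, 17.2 and 17.1 CPM in IMQ+H2O and 8.21, 8.93 and 6.85 CPM in IMQ+XYF, a log2 difference of -1.09 ± 0.13 with the lowest adjusted p of those not called (edgeR, 0.121). VAS+H2O was at 15.5, 15.3 and 16.8 CPM. Degs1, the last enzyme of ceramide synthesis, was at 184, 183 and 163 CPM against 115, 97.3 and 105 CPM, with 86.3, 78.5 and 81.7 CPM in VAS+H2O. Mrps23, of the mitochondrial ribosome, was at 22.2, 29.5 and 31.6 CPM against 15, 15.5 and 14.6 CPM. Inmt, which methylates small indole amines, was at 61.6, 67.0 and 62.6 CPM against 29, 14.2 and 23.7 CPM (-1.51 ± 0.26). Art3, Fbxo31, Cyfip2, Myrip and Nagpa differed by -0.72, -0.62, -1.21, -1.46 and -1.16.

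Above the water group, Dgat2 was followed by Extl1, which elongates heparan sulfate, at 15.9, 15.1 and 16.2 CPM against 28.8, 35 and 25.8 CPM (0.92 ± 0.12; edgeR adjusted p = 0.154). Lamb3, a chain of the laminin that fastens the epidermis to the dermis, was at 22.9, 25.3 and 19.3 CPM against 53.3, 42.1 and 40.8 CPM (1.01 ± 0.15). Slc39a6, a zinc importer, was at 31.4, 34.2 and 32.3 CPM against 63.2, 51.5 and 50.9 CPM, and Anln, a scaffold of the cleavage furrow, at 18.5, 20.7 and 16.8 CPM against 33.6, 28.9 and 33.4 CPM. Plxnb1, a semaphorin receptor, Tubb2a, a β-tubulin, Gpd2, the mitochondrial glycerol phosphate dehydrogenase, and Sec14l2, a carrier of vitamin E, were above by 0.73, 0.80, 0.49 and 1.24. For Dgat2, Extl1 and Lamb3 the VAS+H2O libraries lay near the XYF group or above it, at 127, 111 and 137 CPM for Dgat2, 39.5, 38.6 and 42 CPM for Extl1 and 53.1, 64.6 and 52.6 CPM for Lamb3.

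Of the largest differences downwards that were not muscle or mast cell genes, Mfsd4a, a member of a transporter family, was at 12.8, 29.8 and 19.5 CPM in IMQ+H2O and 4.16, 3.76 and 5.91 CPM in IMQ+XYF (-2.17 ± 0.46). Il17rd, a membrane protein related to the IL-17 receptors that restrains FGF signalling, was at 7.78, 28.9 and 23.7 CPM against 4.08, 5.59 and 5.97 CPM, with 6.04, 6.11 and 28.1 CPM in VAS+H2O. Usf3, a basic helix-loop-helix factor, was at 36.3, 24.6 and 67.5 CPM against 6.60, 3.11 and 7.63 CPM, with 16.9, 49.4 and 2.72 CPM in VAS+H2O. Pagr1a was at 0.413, 7.69 and 0.429 CPM against 0.0995, 0.224 and 0.292 CPM, so that a single water library gave its log2 difference of -3.81 ± 1.62. Upwards, Calm5, a calmodulin-like protein of differentiating keratinocytes, was at 1.65, 1.33 and 2.38 CPM against 20.1, 4.68 and 3.90 CPM, and Tdh, a threonine dehydrogenase, at 0.448, 0.364 and 1.17 CPM against 7.11, 1.48 and 2.87 CPM.

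Among the largest differences upwards were 4 genes that stood at 1 of 2 levels. Zfp966, a zinc finger gene, was at 0.207, 0 and 0.195 CPM in IMQ+H2O and 3.58, 3.42 and 3.51 CPM in IMQ+XYF. Zfp967 had 0 counts in all 3 water libraries and 1.98, 1.95 and 1.92 CPM in IMQ+XYF, at least 24.7-fold higher when the mean of the water libraries' floors of 3 counts each is used. Zfp969 was at 0.207, 0.194 and 0.215 CPM against 1.97, 1.99 and 2.01 CPM. Pcdhga2, a protocadherin whose last exons are shared with its neighbours in a gene cluster, was at 1.89, 2.91 and 3.32 CPM against 160, 181 and 165 CPM. Such zinc finger genes and the protocadherins have near copies beside them, which makes their single values uncertain. The control libraries did not form 1 level. For the zinc finger genes VAS+H2O replicates 1 and 3 were high and replicate 2 low, at 4.0, 0.222 and 4.10 CPM for Zfp966, and for Pcdhga2 replicate 1 alone was high, at 174, 2.28 and 2.60 CPM.

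The 3 zinc finger genes lie in 1 stretch of chromosome 2, at chr2:175918881-175931100 (Zfp966, minus strand), chr2:176521056-176532479 (Zfp967, plus strand) and chr2:175692223-175703646 (Zfp969, minus strand). In RefSeq the 250 bases before the starts of Zfp966 (chr2:175931101-175931350, minus strand) and Zfp967 (chr2:176520754-176521003, plus strand) in GRCm38.p6 were identical at 250 of 250 positions. They are shown because they are exact copies of one another. The transcripts of these genes were not compared, and how the counts split between the genes is uncertain.
Zfp966 and Zfp967 upstream: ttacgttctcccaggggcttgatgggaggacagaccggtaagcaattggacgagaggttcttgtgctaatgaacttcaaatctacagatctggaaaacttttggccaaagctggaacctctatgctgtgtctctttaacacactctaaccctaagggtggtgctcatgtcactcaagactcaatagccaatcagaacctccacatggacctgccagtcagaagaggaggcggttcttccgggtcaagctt

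**Figure D5:**
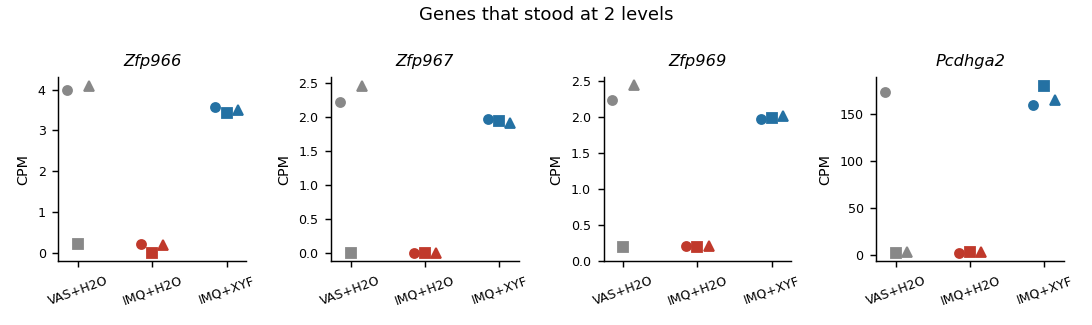
CPM of Zfp966, Zfp967, Zfp969 and Pcdhga2 in every library, by group and with the replicate symbols of the other plots. All 3 IMQ+XYF libraries sit at the upper level and all 3 IMQ+H2O libraries at the lower, while the VAS+H2O libraries are split between both levels.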

How the data were processed

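The authors deposited whole-number read counts per Ensembl gene, not normalized, for 52550 genes in 9 libraries. Their methods and processing notes name STAR 2.5 alignment to GRCm38 and DESeq; the counting tool and its use of the strand were not given in the sources used here. Of these genes 16554 had no count, and 27 with a date for a symbol were handled by identifier. In edgeR 4.0.16 (R 4.3.3), filterByExpr left 22430 genes, libraries were scaled by TMM, and 1 quasi-likelihood fit over all 9 libraries tested IMQ+XYF against IMQ+H2O with Benjamini-Hochberg adjustment. The common biological coefficient of variation was 0.296. The test was tried on simulated counts. Standard errors come from the F statistic. Library totals were 28756305 to 79836881. DESeq2 1.42.0, other scalings and filters, the 6 imiquimod libraries alone, a replicate block and leaving out each library were alternatives. The 54 gene lists held 1234 symbols, of which 1226 were in the table. Genes named are those called, the 15 largest differences and 10 lowest p per direction among genes with separate groups and a mean of 100 counts, and list members. The comparison, lists and rules were chosen with earlier results of these data known. Coordinates are from GENCODE vM21.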

Additional observations from a re-analysis of the deposited data

How the results depend on the processing

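The number of called genes was 2, and it became 225 with DESeq2's Wald test, 1 with library totals alone, 1 with the 6 imiquimod libraries alone, 0 with a replicate block and from 0 to 4 when 1 library was left out. The numbers only name the libraries: over 9 pairs, libraries with the same number in different groups had correlated deviations of r from -0.183 to 0.125, against -0.161 to 0.277 over 18 pairs with different numbers. The count of genes above all water libraries went from 2067 to 117 and of those below from 1961 to 171 when a gap of 1.5-fold was asked for. With 1 library left out the counts ran from 2107 to 4465 and from 1983 to 3420. Where that library was of the 2 groups compared, 2 against 3 libraries separate more easily. With 1 library left out, list medians ran from 0.06 to 0.36 for elastic fibres, 0.47 to 1.32 for basal and 0.55 to 1.75 for differentiated keratinocytes, -0.31 to 0.36 for hair follicle, -0.88 to 0.05 for melanocytes, -0.5 to 0.06 for B and plasma cells, -0.7 to 0.19 for erythrocytes, -0.11 to 0.02 for innate kinases, -0.12 to -0.01 for oxidative phosphorylation, 0.08 to 0.3 for glycolysis, -0.05 to 0.21 for sterol synthesis, 0.12 to 0.58 for arachidonic acid, 0.09 to 0.31 for Wnt, -0.22 to -0.03 for glucocorticoid targets and 1.03 to 1.54 for the study's 10 dermal genes. Without a low-count filter the median of B and plasma cell genes was 0. Under the other alternatives the medians moved by less than 1 SD between replicates, and no result changed direction past its threshold. Depth limits the genes far below 1 CPM, such as Il17a.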

Other observations

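Of the gene groups not described above, some had more genes below all water libraries than the 8.74% of all genes. Of 14 melanocyte genes 3 (21.4%) were below and 0 above, and of 16 angiogenic factors 3 (18.8%) were below and 0 above. B and plasma cells had 1 of 6 tested genes below (16.7%) and erythrocytes 1 of 9 (11.1%), with 0 above in each. In lists this short a single gene cannot be set apart from the share over all genes. The erythrocyte median was -0.08, and 0 of its genes had an unadjusted edgeR p under 0.05. Of 19 genes of TNF and NF-κB signalling 1 was below (5.26%) and 0 above. Of 15 genes of the endoplasmic reticulum stress response 0 separated in either direction, by edgeR 1 had an unadjusted p under 0.05, and DESeq2 called 0.

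Of 16 genes of ribosome biogenesis, all 16 had a log2 difference above 0, with a median of 0.31, but 1 stood above all water libraries, and 15 did without IMQ+XYF replicate 2. Amino acid synthesis had 2 of 22 genes above and 1 below, and 14 above without that library. Of 18 circadian genes 1 was above and 1 below, and without IMQ+XYF replicate 1 there were 8 above. The count over all genes rose too when 1 library was left out, so these counts only name the library.

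Zfp966, Zfp967, Zfp969 and Pcdhga2 were 4 of 80 genes with a gap of 3-fold or more between an upper and a lower set of libraries. The upper set had to lie within 1.6-fold and at 1 CPM or more. The spread of the lower set was not limited, so in others of the 80 it need not be 1 level, as for Krt16. In these 4 the gap cut across the VAS+H2O libraries. In 73 others of the 80 it also cut across the libraries of a group, and in 3 the VAS+H2O libraries stood apart.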
